A study of Mus musculus with 4 samples.

Results

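The clusters described here are chains of neighbouring chromatin regions that were open in WT embryoid bodies (EBs) and had no peak in CTCF-K20R EBs. Open chromatin was mapped by ATAC-seq, in which a transposase cuts and tags accessible DNA, in day 4 EBs made from E14Tg2A, a mouse embryonic stem cell (mESC) line. There were 2 libraries of each genotype, described as biological replicates, with 59783 and 66703 peaks in WT and with 51823 and 55832 in K20R. In CTCF-K20R cells lysine 20 of CTCF, the main architectural protein of vertebrate chromosomes, was replaced by arginine with CRISPR/Cas9, and WT cells carried the unedited protein. Both kinds of mESCs were kept on mitomycin C-inactivated mouse embryo fibroblasts with leukemia inhibitory factor and 2i inhibitors, and EBs were then made in hanging drops without that factor. The edited colonies had passed drug selection, sequencing and Western blotting, and how many colonies gave the 2 K20R libraries is not given in the sources used here. A clone that differs for other reasons and the K20R change itself therefore cannot be told apart.

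Overlapping peaks of all 4 lists (1 bp or more) were fused, which gave 80380 regions. Regions that both WT lists and neither K20R list held were called WT-restricted, and on the 19 autosomes 8218 of 78837 regions (10.4%) met this. WT-restricted regions were joined into a chain when the gap between neighbours was at most 50 kb, and chains of 4 or more regions were kept. The chains held 976 regions, which is 11.9% of the WT-restricted and 1.21% of all regions. The genotype contrast chose these regions, so their presence in WT and absence in K20R is a description and was not tested. All coordinates are in mm10 and count from 1.

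Open chromatin outside promoters marks mostly enhancers, stretches of DNA that bind transcription factors and act on promoters some distance away. Genes that direct the formation of a lineage often have several enhancers in and around the gene body, so that their accessible sites come in groups. CTCF binds its own long consensus at many sites and, with cohesin, holds loops that bring enhancers and promoters together. EBs form cells of the early mesoderm, endoderm and ectoderm side by side, and the mesoderm goes on to make heart, blood and vessels. In a bulk assay of this kind fewer cells of a type and less open chromatin per cell cannot be told apart. Promoter peaks of listed genes of several lineages were present in all 4 lists, for 21 of 28 early mesoderm, 17 of 28 cardiac, 15 of 22 pluripotency and 10 of 18 fibroblast genes. The cardiac list had promoter peaks at 22 and 25 genes in the WT lists and at 18 and 17 in the K20R lists, and the fibroblast list at 12 and 14 beside 12 and 13. In the same order the counts were 21 and 22 beside 23 and 22 for early mesoderm, 15 and 15 beside 15 and 17 for hemato-endothelial genes, and 16 and 16 beside 14 and 14 for endoderm. They were 18 and 17 beside 19 and 20 for pluripotency and 19 and 19 beside 16 and 19 for neuroectoderm. The part of such differences in cell makeup in the results was not tested.

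As examples, the 151 bp around the strongest WT summit of the strongest region are printed for 8 of the chains. They were taken from chains with the most regions and from those at lineage genes. Capitals mark matches, on either strand, to short consensus sequences of transcription factor families that are spelled out further on. All 8 windows hold a match, whereas 253 of the 976 chained regions had none within 100 bp of the summit. A window near Lefty2 without a match and one in a Ttc7 intron with a single match are not printed, so the 8 do not stand for all chained regions. Sequences are from the GRCm38.p6 reference, plus strand, 5′ to 3′.
Plekha6 intron, chr1:133244729-133244879: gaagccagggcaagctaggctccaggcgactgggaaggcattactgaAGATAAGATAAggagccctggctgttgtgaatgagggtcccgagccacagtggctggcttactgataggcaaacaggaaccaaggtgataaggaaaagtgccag
upstream of Tpm1, chr9:67116068-67116218: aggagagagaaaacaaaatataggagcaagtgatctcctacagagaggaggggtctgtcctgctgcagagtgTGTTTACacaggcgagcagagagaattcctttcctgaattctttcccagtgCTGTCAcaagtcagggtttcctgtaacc
upstream of Fli1, chr9:32594325-32594475: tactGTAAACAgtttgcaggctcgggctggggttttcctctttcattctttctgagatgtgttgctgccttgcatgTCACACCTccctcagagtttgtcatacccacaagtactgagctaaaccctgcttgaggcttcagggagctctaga
near Cxcr4, chr1:128561646-128561796: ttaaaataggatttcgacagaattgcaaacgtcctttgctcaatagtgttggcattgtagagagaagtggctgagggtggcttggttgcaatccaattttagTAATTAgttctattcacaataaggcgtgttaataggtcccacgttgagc
near Krt8, chr15:102005692-102005842: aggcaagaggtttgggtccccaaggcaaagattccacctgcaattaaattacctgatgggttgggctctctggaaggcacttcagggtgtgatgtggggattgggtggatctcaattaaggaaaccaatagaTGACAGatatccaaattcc
Gata4 intron, chr14:63264447-63264597: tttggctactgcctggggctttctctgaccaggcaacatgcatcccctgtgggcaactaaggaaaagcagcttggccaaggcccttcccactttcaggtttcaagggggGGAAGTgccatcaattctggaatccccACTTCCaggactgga
near Foxa2, chr2:148005306-148005456: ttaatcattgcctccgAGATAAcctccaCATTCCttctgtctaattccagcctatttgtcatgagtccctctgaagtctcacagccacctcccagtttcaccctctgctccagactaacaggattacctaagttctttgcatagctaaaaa
near Tbx20, chr9:24782340-24782490: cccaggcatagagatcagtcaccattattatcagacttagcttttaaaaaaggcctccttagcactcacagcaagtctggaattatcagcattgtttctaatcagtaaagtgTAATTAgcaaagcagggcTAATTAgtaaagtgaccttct
In the Plekha6 window AGATAA, the letters that GATA factors recognise, occurred in 2 overlapping copies. The Foxa2 window held the same letters beside a TEAD match. The Fli1 window held a T-box match together with a forkhead match on the other strand. The Tbx20 window had TAATTA at 2 places, and the Gata4 window had ACTTCC, the ETS letters, once on each strand.

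The chains were mostly short. There were 110 chains of 4 regions, 46 of 5, 23 of 6, 16 of 7, 2 of 8 and 4 of 10. The span from the first to the last base ran from 19.4 to 252 kb, with a median of 79.4 kb, and neighbouring regions of a chain lay a median of 18.5 kb apart. All regions of 58 chains lay within the body of a single protein-coding gene, 26 chains overlapped no protein-coding gene, and the other 117 reached beyond one gene. The same rule applied to K20R-restricted regions, of which there were 2445 on the autosomes (3.1% of regions), gave 4 chains with 17 regions (0.695% of them), and the longest had 5. These lay over Elovl6, Etnk1 and Gab1 and in a stretch of chromosome 2 with no protein-coding gene. The counts for the 2 classes start from unequal numbers of regions and are set side by side without a test.

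**Figure D1:**
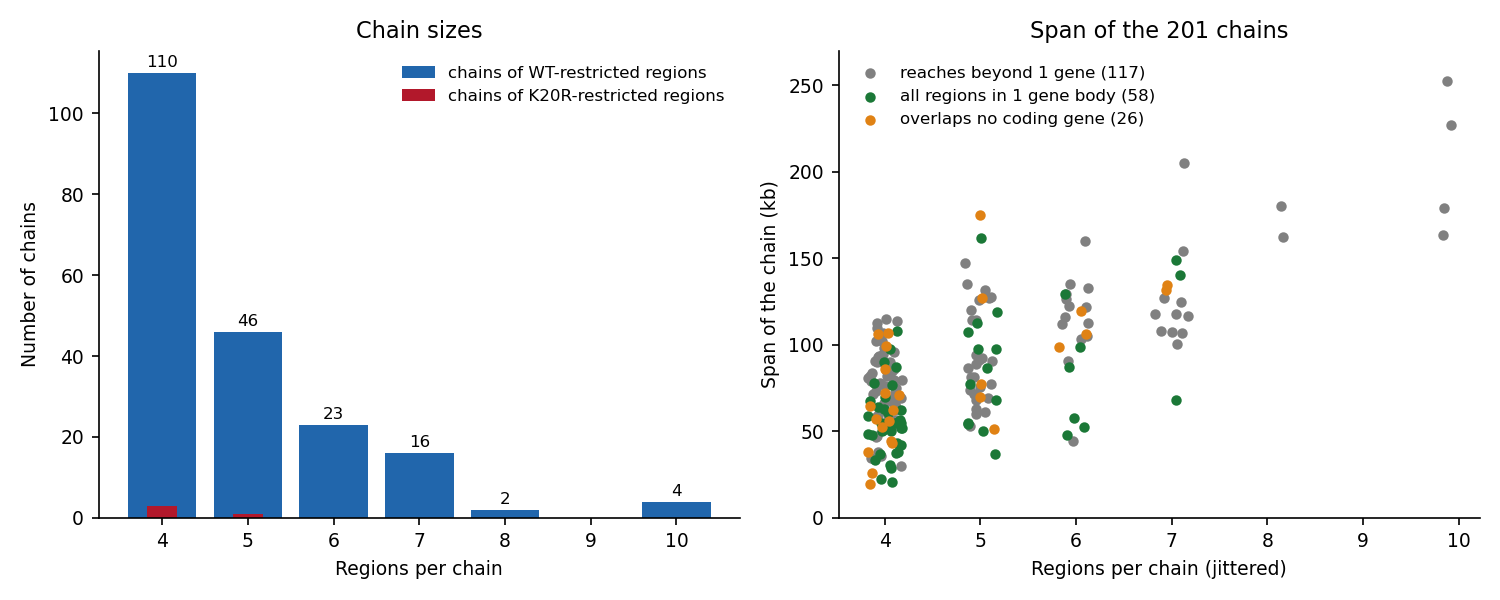
Left, number of chains by regions per chain for WT-restricted regions (blue) and K20R-restricted regions (red, 4 chains). Right, span in kb of each WT-restricted chain against its number of regions, with points moved sideways at random for visibility; 58 chains lay in a single gene body and 26 overlapped no coding gene.

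The limits of the rule cut through a continuum. Inside the chains 62 gaps measured 45 to 50 kb, the longest 49.9 kb, and 15 gaps of 50 to 55 kb, the shortest 50.8 kb, ended a chain. A further 340 groups of exactly 3 regions, with 1020 regions, fell just short of the number required. Chromosomes 17, 14 and 1 had the largest shares of their WT-restricted regions in chains, with 16.3%, 16.1% and 15.8%, and chromosome 10 had the smallest with 6.30%. On chromosome X there were 119 WT-restricted regions and no chain when it was added.

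The spans of the chains were not empty in K20R. They held 2190 regions of all kinds, of which 976 (44.6%) were the chained ones, 516 had a peak in all 4 lists (common regions) and 29 were K20R-restricted. The remaining 669 had a peak in other combinations of libraries, and 403 of these had one in a K20R list. A common region lay within 155 chains, no K20R-restricted region lay within 176, and only 8 chains held nothing but WT-restricted regions.

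The strength of a peak was followed by its percentile within its own list, by the peak p, where 100 is the strongest. The chained regions had a median percentile of 29.0 in WT replicate 1 and 34.0 in WT replicate 2, and the highest values were 87.6 and 91.5. They were thus peaks of the lower to middle range, like the WT-restricted regions outside the chains with 28.3 and 33.1, and below common regions with 65.9 and 69.2. The read pileup at the summit, recovered from the deposited fold and p, ran from 7 to 89 (median 17) in WT replicate 1 and from 7 to 155 (median 24) in WT replicate 2. The lowest pileup that the K20R lists held was 8, so the weakest chained regions were close to the floor of every list. Both WT peaks had a −log10 q, the significance adjusted by the peak caller, of at least 5 at 391 of the 976 regions and of at least 10 at 164. Of all 8218 autosomal WT-restricted regions 3218 reached 5, a similar share. The lowest −log10 q of a chained region was 0.42 in WT replicate 1 and 0.59 in WT replicate 2. The lists thus held peaks that were not significant after adjustment, and some chained regions rested on such peaks. Both WT peaks were above percentile 50 at 163 regions, above percentile 75 at 29, and at or above percentile 90 at 0. For these percentiles and for a −log10 q of 10 the share over all WT-restricted regions was not counted.

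A region without a K20R peak in the deposited lists can still have had a called one. Peak numbers in the lists have gaps, and the 4 lists held 51.7% and 50.5% (WT) and 58.6% and 60.8% (K20R) of their numbers. Where the deposited K20R peaks on both sides of a region carried consecutive numbers in both K20R lists, no called peak can have been taken out between them. This held for 329 of the 976 chained regions (33.7%), against 28.2% of WT-restricted regions outside chains. At 15 chains with 68 regions it held for every region. Among these were the chains at Myh9, Gata4, Kif13b, Scara3, Vgll4, Rad51b and from Lsp1 to Mrpl23. Of the 15, 5 lay in a stretch of chromosome 14 that is described below.

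The 4 chains of 10 regions lay at Plekha6 to Etnk2, at Lgr4 and Ccdc34, at Tpm1, and from the side of Mcfd2 to Stpg4. Plekha6 is a pleckstrin homology domain protein of cell junctions, and 7 of the 10 regions of its chain (chr1:133204342-133367974) lay in its introns. The strongest, 1293 bp from a transcription start of Plekha6, was at percentiles 56.4 and 55.5, and the weakest, 2801 bp from Ren1, at 11.4 and 10.5. The last region of the chain, in an intron of Etnk2, showed how far rank and pileup can part, with a pileup of 55 in both WT libraries and percentiles of 45.5 and 12.8.

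Lgr4 is a receptor for R-spondins that strengthens Wnt signals, and its chain (chr2:109936077-110188556) was the longest in kb. From the Lgr4 introns it ran through the annotated body of Ccdc34 into the intergenic sequence before Bbox1. Its strongest region, 131803 bp from the TSS of Bbox1, was at 56.7 and 64.9, and its weakest, in an Lgr4 intron, at 2.34 and 5.15. At every region of this chain at least 1 peak number was missing between the neighbouring K20R peaks. The Lgr4 promoter itself ranked high in all libraries, with 87.2 and 95.7 in WT against 96.6 and 94.5 in K20R, so that the genotypes overlapped. Promoter ranks are given from 0 to 100 among the genes that had a promoter peak in all 4 lists.

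Tpm1 codes for a tropomyosin of the actin filament, with muscle and cytoskeletal forms. Its chain (chr9:67012806-67192154) had 1 region in a Tpm1 intron, 2 beyond the end of the gene and 7 upstream of it towards Tln2. Percentiles ran from 4.1 and 2.9 in the intron to 64.3 and 67.1 at the region 66737 bp upstream of the transcription start site (TSS) whose window is printed above. At 5 of the 6 common regions inside this chain both K20R percentiles were below both WT ones, and the last was at 37.6 and 43.7 in WT against 24.7 and 45.4 in K20R. Their median percentiles were 71.8 and 78.8 in WT against 31.8 and 42.9 in K20R. On the log2 scale of the pileup, centred on the median common region of each library, the median difference K20R minus WT was -0.75. The 40 common regions within 1 Mb on either side of the chain had a median difference of -0.003, although the medians of the libraries themselves stood at 0.14 and 0.33 in WT against -0.06 and -0.16 in K20R. The Tpm1 promoter ranked 69.2 and 75.3 in WT against 60.4 and 63.1 in K20R, without overlap.

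The chain from Mcfd2 to Stpg4 (chr17:87168871-87396127) had 6 of its 10 regions in introns of Ttc7, which codes for a tetratricopeptide repeat protein. It also held 2 K20R-restricted regions and 7 common ones. Its region 5488 bp from a TSS of Ttc7 was at 71.2 and 71.8, with no missing number in either K20R list, and the other 9 did not pass 45.4 in either WT library.

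**Figure D2:**
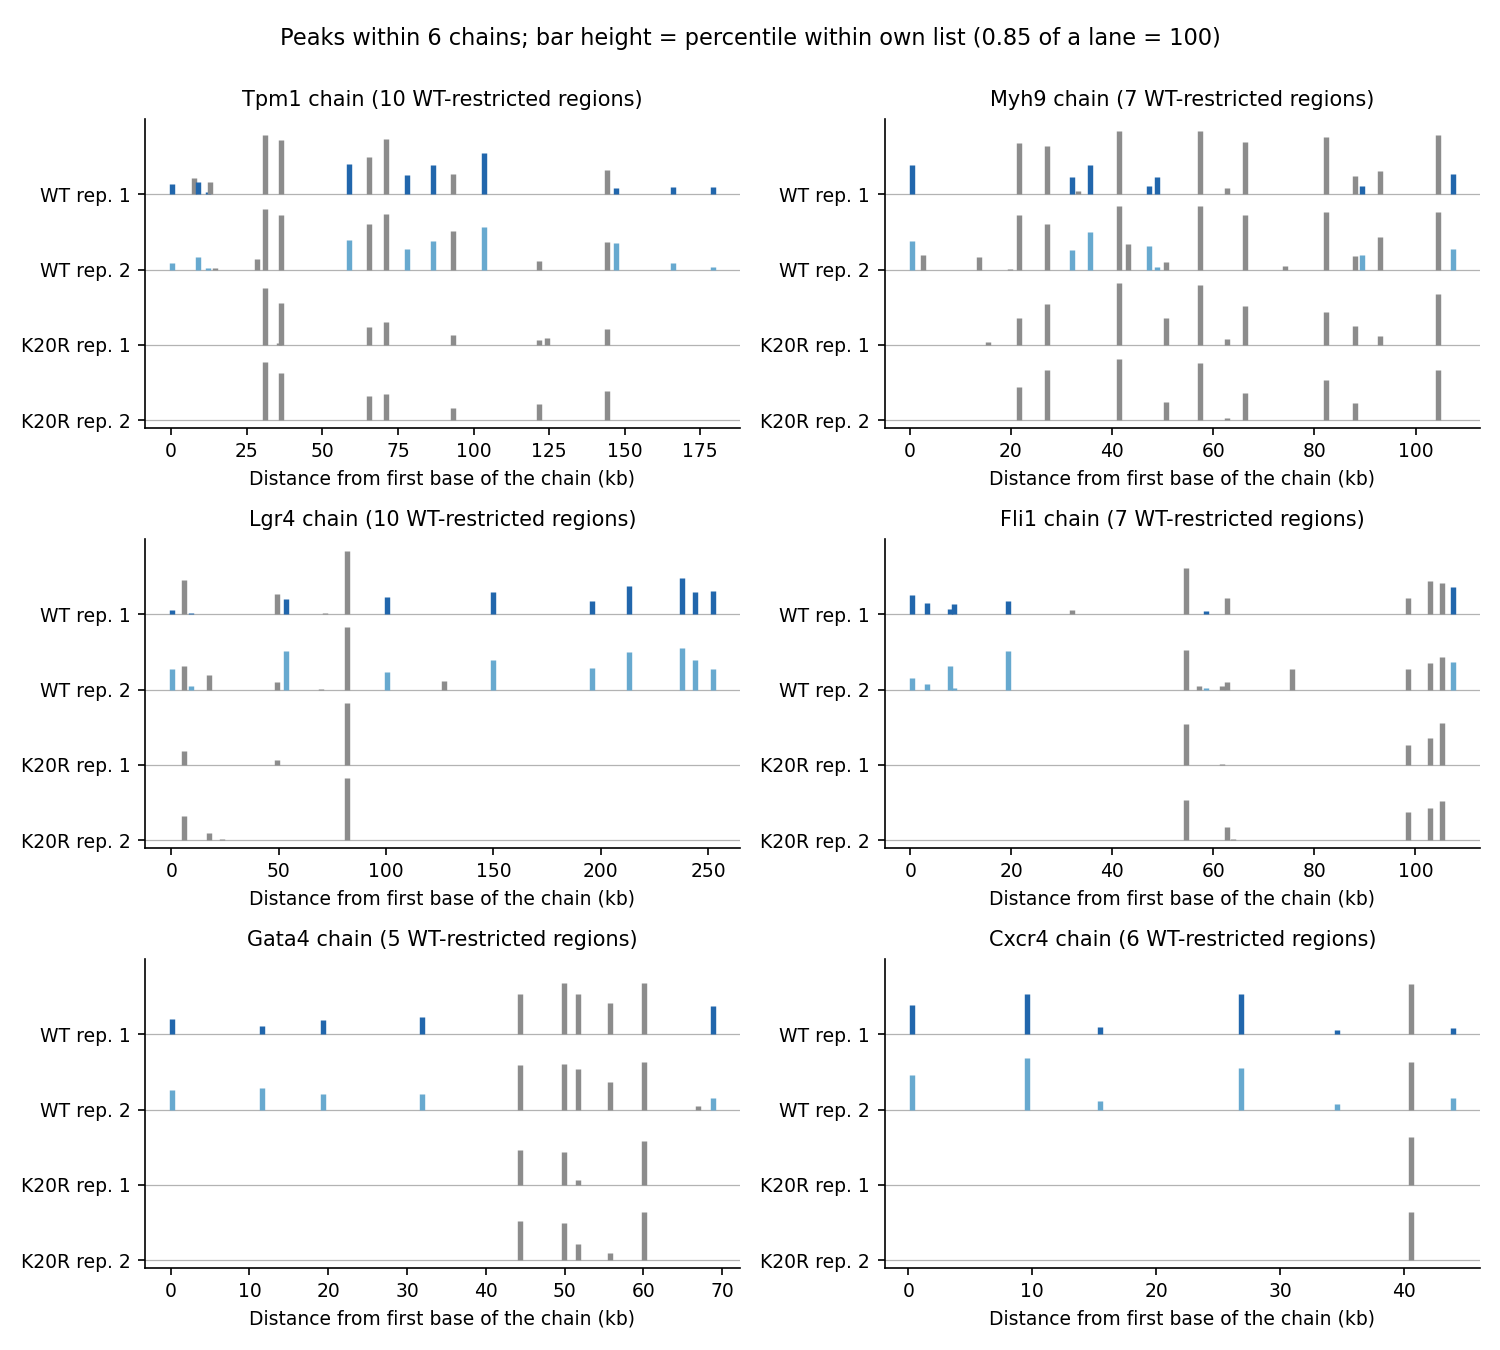
Peaks within the chains at Tpm1, Myh9, Lgr4, Fli1, Gata4 and Cxcr4, one lane per library, against the distance in kb from the first base of the chain. Bar height is the percentile within the own list; blue bars in the WT lanes are the WT-restricted regions of the chain and grey bars are peaks of all other regions, so the K20R lanes hold grey bars alone.

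Among the chains of 7 regions was that over Myh9 (chr15:77800633-77908236). Myh9 codes for the heavy chain of non-muscle myosin IIA, which drives cell contraction and migration. No peak number was missing at any of its 7 regions. The strongest, in an intron 5876 bp from the TSS, had pileups of 45 and 73 and percentiles of 46.5 and 59.4. Its 8 common regions had median percentiles of 86.2 and 87.2 in WT against 62.5 and 70.2 in K20R, with a difference in centred log2 pileup of -0.76 beside -0.09 in the surroundings. The Myh9 promoter ranked 97.2 and 95.3 in WT against 85.9 and 82.9 in K20R.

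A chain of 8 at Celsr1 and Gramd4 (chr15:85955920-86118455) lay wholly in introns, 5 of them in Celsr1, an atypical cadherin of planar cell polarity. Its highest values were 55.3 and 53.7 and 47.0 and 66.8 at neighbouring regions of Celsr1.

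Guidance and contact genes were among the chains of 7. The plexin gene Plxnd1, whose product is a semaphorin receptor of vessels, had 6 of the 7 regions of its chain (chr6:115906544-116007200) in or beside it, with percentiles of 49.8 and 47.4 at most, and the other region, in Ift122, was at 33.5 and 63.9. Sema4d, a semaphorin, and the stress response gene Gadd45g shared a chain (chr13:51745563-51852313) whose strongest region, at 67.5 and 76.7, lay in a Sema4d intron. The Gadd45g promoter was lower in K20R, at 34.7 and 33.6 against 24.8 and 28.1. Zmiz1, a coactivator with a zinc finger, had 6 intronic regions and 1 upstream, between 3.5 and 60.1 in WT replicate 1 and between 23.1 and 66.8 in WT replicate 2, so this chain was weaker in the first library.

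The chain at Dap and Ankrd33b (chr15:31226339-31344258) was the strongest of the chains of 7, with median percentiles of 50.7 and 61.1 and its highest region, an Ankrd33b intron, at 75.9 and 79.8. Dap is known as a mediator of cell death and a regulator of autophagy. At Mbp (chr18:82454230-82579181), a gene of myelin that is also read from an upstream start in other cells, the strongest of 7 regions was at 60.4 and 72.4. The Mbp promoter rank was higher in K20R, at 37.9 and 39.1 against 22.2 and 21.7. Spink13 held all regions of a chain (chr18:62667008-62734865) that contained no other peak of any library in its 67.9 kb. From Aldh3b3 to Cabp2 on chromosome 19 a chain of 7 passed 12 protein-coding genes within 118 kb, with no region above 40.9 in WT replicate 1 or 42.9 in WT replicate 2.

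Ranked by strength instead of size, the first 5 chains were those at Auts2, Robo1, Aqp1, Dap with Ankrd33b, and Mta3. Auts2, a gene of neural development and transcription control, held 5 regions (chr5:131775006-131829631) with median percentiles of 67.3 and 68.9. Of these, 4 lay between 66.6 and 77.8 in WT replicate 1 and between 67.9 and 78.7 in WT replicate 2, and the last was at 18.1 and 22.2. Robo1, the receptor of the guidance molecule Slit, held 4 regions within 22.7 kb at 81.8 and 77.6, 50.7 and 48.0, 34.7 and 45.3, and 75.8 and 85.9. At both of these chains numbers were missing in both K20R lists, 5 and 2 at Auts2 and 4 and 1 at Robo1. Around the water channel gene Aqp1 an intronic region reached 75.3 and 79.1. Mta3 is a subunit of the NuRD repressor complex, and its chain with Haao reached 77.2 and 80.2.

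**Figure D3:**
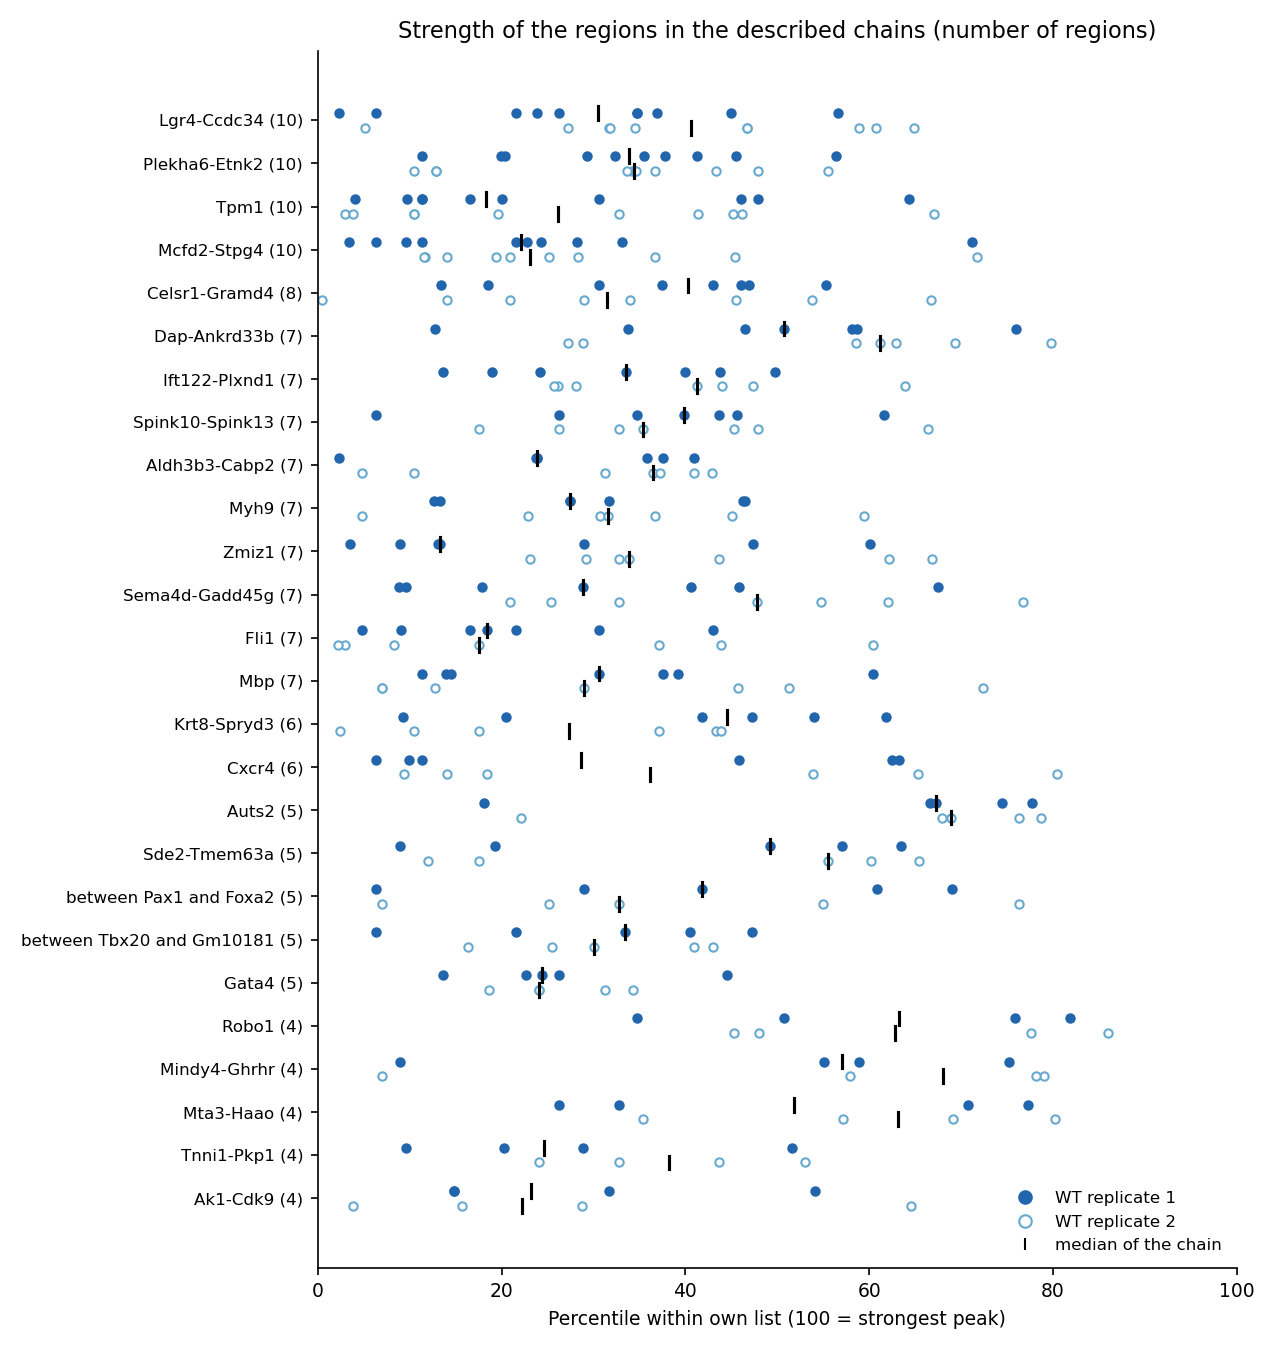
Percentile within the own list of every region in the chains described by name, in WT replicate 1 (filled) and WT replicate 2 (open), with black bars at the medians and the number of regions in brackets. The chain labelled Sde2-Tmem63a holds Lefty1 and Lefty2, and that labelled Ak1-Cdk9 holds Eng; Auts2 has the highest medians, 67.3 and 68.9.

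Lists of lineage genes were compared with the chains by counts alone. Of all 20780 autosomal protein-coding genes 317 (1.53%) overlapped a chain. Of the lists, 3 of 28 cardiac genes (Gata4, Tnnt2 and Tnni1), 3 of 21 endoderm genes (Cxcr4, Krt8 and Krt18), 2 of 22 autosomal hemato-endothelial genes (Fli1 and Eng) and 1 of 28 early mesoderm genes (Lefty2) did so. None of the pluripotency, neuroectoderm and fibroblast genes did. Tbx20 and Foxa2, from the cardiac and endoderm lists, were the nearest genes to chains that overlapped no gene. No share was tested.

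Gata4, a zinc finger factor of heart and endoderm, had 4 regions in its introns and 1 just beyond it, 2470 bp from the TSS of Neil2 (chr14:63195918-63265038). Their percentiles were 24.3 and 31.2, 13.6 and 34.3, 22.7 and 24.1, 26.3 and 24.1, and 44.5 and 18.7, with pileups between 13 and 32. No K20R peak number was missing at any of the 5. The promoter ranked 33.0 and 16.5 in WT against 6.18 and 8.01 in K20R. However, common regions within 1 Mb of this chain were lower in K20R as a whole, by a median of -0.76, and those inside the chain by -0.93.

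The troponin genes Tnni1 and Tnnt2, parts of the calcium switch of striated muscle, shared a chain of 4 (chr1:135800463-135893968). Here 2 of the regions were promoter regions, that of Tnni1 at 28.9 and 43.6 and that of a Tnnt2 transcript at 20.3 and 32.8. Tnnt2 as a whole had a promoter peak in both WT lists and in K20R replicate 1. The intergenic region beyond Tnnt2 was stronger, at 51.6 and 53.0. The 4 common regions inside this chain had a median difference of 0.46, and the surroundings stood at 0.24. Their median percentiles overlapped between the genotypes, with 53.1 and 67.5 in WT against 66.8 and 64.1 in K20R. Near Tbx20, a T-box repressor of the heart field, all 5 regions were intergenic, between 8112 and 134582 bp from its TSS (chr9:24782174-24909359), and the nearest was at 33.4 and 43.0.

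Fli1, an ETS factor of blood and vessel precursors, had 5 intronic regions and 2 upstream (chr9:32487026-32594782). These were weak, with medians of 18.4 and 17.5. The most even one lay 52805 bp upstream at 43.0 and 43.9, while an intronic region 35382 bp from the TSS was at 21.6 and 60.4, so the WT libraries differed there. At the 5 intronic regions 4 numbers were missing in K20R replicate 2. By the distance rule for promoter peaks, the Fli1 promoter had a peak in both WT lists and in K20R replicate 1. The common region over the Fli1 TSS was at 72.8 and 61.2 in WT against 63.2 and 63.7 in K20R. K20R replicate 2 thus had a peak in that region too. Eng, a coreceptor for TGF-β family ligands in endothelium, had 1 weak intronic region at 14.8 and 3.83. The strongest of its chain, at 54.1 and 64.6, lay 2478 bp from Cdk9, and the Eng promoter ranked higher in K20R, at 11.3 and 8.38 against 6.77 and 1.54.

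Cxcr4, the receptor for the chemokine Cxcl12 and a marker of definitive endoderm, had the most compact of the lineage chains, with 6 regions in 44.2 kb (chr1:128551697-128595890). Going along the chromosome, they were at 45.9 and 53.8, 62.5 and 80.4, 11.4 and 14.1, 63.3 and 65.3, 6.4 and 9.3, and 9.9 and 18.5. The only other region in this span was the common one at the promoter, with 78.6 and 74.3 in WT against 75.4 and 75.6 in K20R, where the genotypes overlapped. At 5 of the 6 regions 1 number was missing in K20R replicate 2 and none in K20R replicate 1.

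Foxa2, a forkhead factor of endoderm and axial mesoderm, stood 40.3 kb from the end of a chain of 5 intergenic regions (chr2:147928267-148005677). The nearest was the strongest, at 69.0 and 76.3, and the next was at 60.8 and 54.9, while the one at 61148 bp was at 6.4 and 7.0. Of these 5 regions 3 had the GATA letters. The keratin pair Krt8 and Krt18, of simple epithelia, had 6 regions (chr15:101966948-102127120) among 18 common ones. That 1285 bp from Krt8 was at 61.8 and 43.4, and Krt8 had a promoter peak in both WT lists and in neither K20R list. The Krt18 promoter ranked higher in K20R, with 10.6 and 18.1 against 6.64 and 7.23. Lefty1 and Lefty2, secreted inhibitors of Nodal, had 5 regions around them (chr1:180826696-180952740), with 63.4 and 65.4 at 9267 bp from Lefty2 and 49.2 and 55.5 at 8549 bp from Lefty1. The latter carried a T-box match, as did the first region of the chain, at 57.0 and 60.2 and 13227 bp from H3f3a. Neither Lefty promoter had a peak in any list.

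Other chains lay at genes of signalling pathways; these were picked for their known roles after the values had been seen and stand as examples. Wnt11, a ligand of heart and mesoderm, had an intergenic region at 80.0 and 88.1, with pileups of 59 and 102, and no missing number. Sfrp1, a secreted Wnt inhibitor, had one in an intron at 82.8 and 87.2. The Wnt receptor genes Fzd7 and Fzd5 had chains of 5 and 6 whose strongest regions were at 46.8 and 56.3 and at 72.99 and 65.2. Tgfbr3, the TGF-β coreceptor betaglycan, had a chain of 7 with 3 common regions whose median percentiles were 73.8 and 79.1 in WT against 35.2 and 40.4 in K20R. Its promoter rank was 67.1 and 49.7 in WT against 39.6 and 31.2 in K20R. For Acvr2b, an activin and Nodal receptor, the promoter ranked 85.2 and 87.8 against 73.8 and 68.8. Bmp7 and Smad7, a ligand and an inhibitor of the BMP and TGF-β branch, had chains of 5, and both promoters ranked higher in K20R, with 50.1 and 39.2 against 52.7 and 54.6 and with 49.4 and 55.1 against 55.2 and 68.8.

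The strongest single regions of all were likewise taken after ranking. The first was an intergenic region at chr2:166399083-166400013, 182702 bp from Prex1, at 87.6 and 89.1, with numbers missing in both K20R lists. In an intron of the kinase gene Nuak2 a region reached 85.1 and 89.97, with the highest pileups of all, 89 and 155, and no missing number. A region in Camk2d, the calcium-dependent kinase of the heart, was at 82.8 and 91.5, and one in Cdh2, the N-cadherin of mesoderm and heart, at 82.8 and 89.0. Rbm20, a splicing factor of heart muscle, is added for its known role and not for its strength. Its strongest region by the mean of both libraries was at 61.1 and 81.9, and the promoter ranked 33.1 and 34.1 in WT against 20.7 and 21.5 in K20R.

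By place, 57.1% of the chained regions had their strongest summit in an intron (Wilson 95% interval 53.9 to 60.1), 38.7% in intergenic sequence (35.7 to 41.8), 2.36% within 1000 bp of a TSS (1.58 to 3.51) and 1.84% in an exon (1.17 to 2.90). WT-restricted regions outside chains had 49.9% in introns and 3.42% at promoters, and common regions 27.2% and 35.5%. Such intervals cover counting error only, and regions of a chain share a locus and are not independent. The median distance to a TSS was 28186.5 bp. The median GC content within 100 bp of the summit was 52.2%, beside 50.7% for WT-restricted regions outside chains and 57.2% for common regions.

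The letters of 14 motifs were searched on both strands within 100 bp of the strongest summit. For GATA factors (AGATAA) 134 of the 976 regions had a match, 13.7% (11.7 to 16.03), beside 14.6% of WT-restricted regions outside chains, 6.67% of K20R-restricted, 5.10% of common and 7.79% of all regions. T-box letters (TCACACCT), read by Brachyury, Eomes and the Tbx factors, were found in 3.59% (2.59 to 4.95), beside 2.79%, 0.613%, 0.814% and 1.25% in the same order. Forkhead letters (TGTTTAC) had 6.76% (5.35 to 8.51), beside 6.74%, 2.29%, 2.55% and 3.29%. For these families the chained regions stood near the other WT-restricted regions and above the K20R-restricted and common ones.

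The homeodomain letters TAATTA were found in 6.15% (4.81 to 7.83), beside 6.88% of WT-restricted regions outside chains. K20R-restricted regions had 2.58% and common ones 2.35%. MEIS letters (TGACAG) had 20.3% (17.9 to 22.9), beside 19.8%, 12.2% and 12.65% in the same order. For both motifs the chained regions thus stood near the other WT-restricted regions. The E-box CAGCTG was the most frequent, in 22.6% (20.1 to 25.4), beside 20.1% of WT-restricted regions outside chains, 14.6% of K20R-restricted, 15.1% of common and 16.2% of all regions. The other families were closer to the K20R-restricted regions. TCF-LEF letters (ATCAAAG) had 3.69% beside 2.45%, SOX (ACAATGG) 3.69% beside 4.09%, and AP-1 (TGANTCA) 8.91% beside 8.34%. The E-box CATATG had 2.97% beside 2.49%, TEAD (CATTCC) 13.0% beside 14.9%, ETS (ACTTCC) 14.4% beside 15.5% and the octamer (ATGCAAAT) 1.84% beside 1.92%. Except for TCF-LEF, the K20R-restricted share lay within the interval of the chained regions. Over all regions, TAATTA was found in 3.49% and TGACAG in 14.9%. The shares of all regions for the 7 motifs just listed were 2.67%, 3.00%, 7.08%, 2.42%, 12.05%, 15.2% and 1.82%.

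The CTCF consensus was rare in the chains, in 17 of 976 regions or 1.74% (1.09 to 2.77). Its share was 2.69% among WT-restricted regions outside chains, 4.01% among K20R-restricted ones, 7.11% among common ones and 5.9997% among all. Of these, the share of WT-restricted regions outside chains lay within the interval of the chained ones. In the described chains it was present in a region of Zmiz1, in 1 of Spink13 and in 2 of Mbp. At least 1 of the 14 motifs was found in 723 of the chained regions, and in 17 regions matches of different motifs shared bases. How many other regions had any of the 14 was not counted, so the 723 is not read as a trait of the chains. A match says only that the letters are there.

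**Figure D4:**
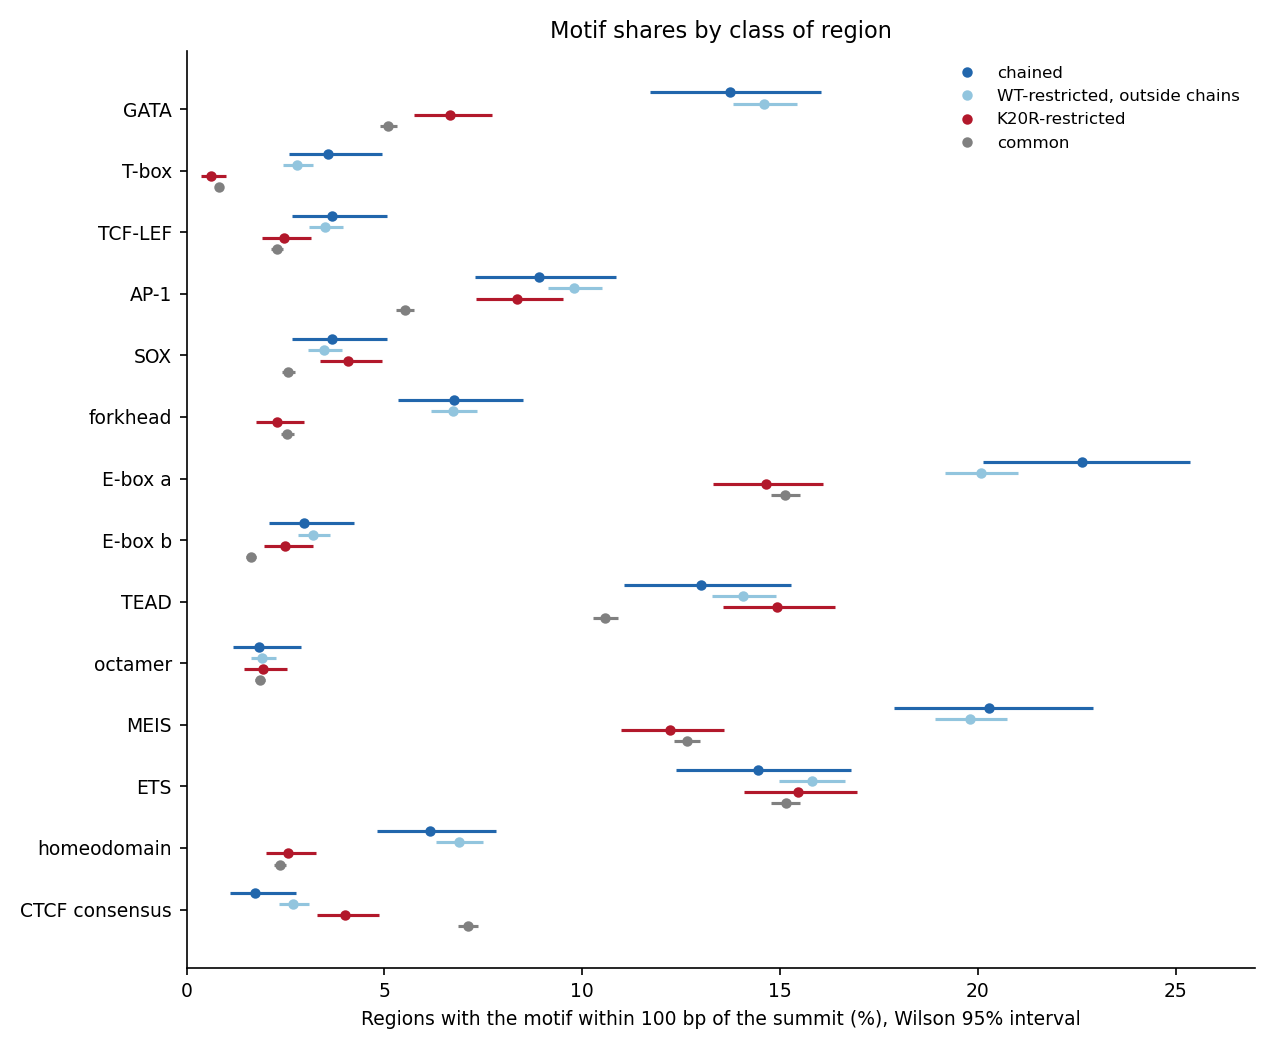
Share of regions with each motif within 100 bp of the strongest summit, in percent, for chained regions (dark blue), WT-restricted regions outside chains (light blue), K20R-restricted regions (red) and common regions (grey), with Wilson 95% intervals. The first E-box, marked a, has the letters CAGCTG, and the other is marked b. GATA, T-box and forkhead shares lie higher in both WT-restricted classes, and the share with the CTCF consensus lies lower in both.

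The common regions within the chains were not used by the rule, although they are neighbours of regions chosen on the same contrast. They were compared by log2 pileup centred on the median of each library, and no test was run. Of the 516, 193 (37.4%) were lower in both K20R libraries than in either WT library and 146 (28.3%) were higher in the same sense, whereas over all 37692 autosomal common regions 23.7% were below and 35.9% above. Their median K20R minus WT was -0.04, beside 0.08 for all common regions. Restricted to regions outside promoters, 41.1% of 392 were below and 25.8% above, beside 28.6% and 33.1% of all. Without the chains of the chromosome 14 stretch, 35.5% of 499 were below and 29.1% above.

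Of the chains, 9 lay in surroundings that were lower in K20R, all on chromosome 14, at Tspan14, Fbxo34, Peli2, Spata13, Gata4, Kif13b, Zfp395, Scara3 and Ptk2b. The median difference of the common regions within 1 Mb was -0.53 to -0.81 there, while the lowest around any other chain was -0.22. With the difference of the library medians in its place, 23 chains had surroundings below -0.3. Around Scara3, for example, the library medians were 0.40 and 0.36 in WT against -0.53 and -0.54 in K20R. These 9 chains held 43 regions, 33 of them with no missing number in either K20R list. The other 192 chains with 933 regions lay elsewhere. What lowered this stretch was not tested, and a lower level of all regions there and an absence particular to the chained ones cannot be told apart. In the opposite direction, the surroundings of the chains at Plxna2 and St3gal2 stood at 0.50 and 0.69, and the 4 regions of St3gal2 were among the weakest, none above 15.8.

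Outside that stretch some chains held common regions that differed by more than their surroundings. The examples given here were picked after the values had been seen. At Tgfbr3 the values were -1.37 inside and 0.13 around, and at Plxna2, with only 2 common regions inside, -1.07 and 0.50. Kcnc1, a potassium channel gene, had a single common region in its chain, at 72.2 and 74.3 in WT against 25.8 and 39.7 in K20R, with -1.58 inside and 0.16 around. At Angpt2, a ligand of vessel growth, the 1 common region was higher in K20R instead, with 20.4 and 43.0 in WT against 50.05 and 63.2 in K20R. Of 155 chains with a common region inside, 89 had a median below 0. Some of these medians rested on only 1 or 2 common regions, and no such count was made for other spans, so it is a description.

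**Figure D5:**
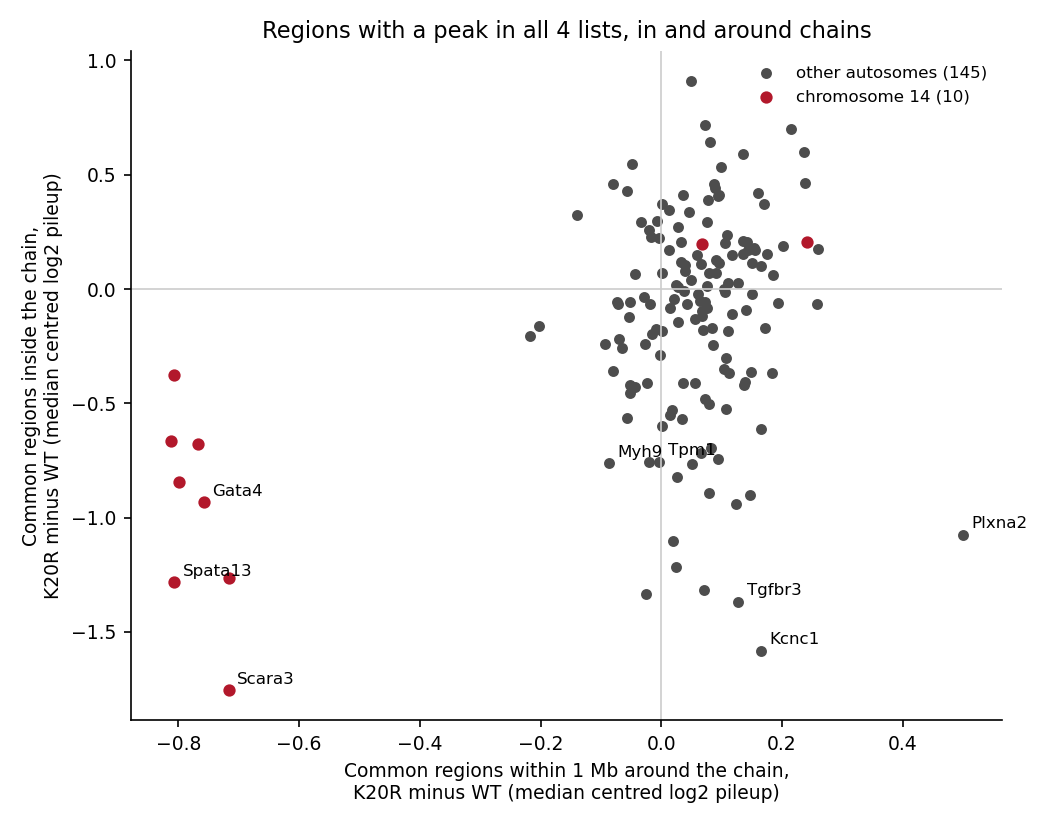
Median difference of common regions, K20R minus WT in centred log2 pileup, inside each of 155 chains (vertical axis) against that within 1 Mb around it (horizontal axis). Chains on chromosome 14 are red; 8 of the 9 chains with low surroundings have a common region inside and form the group at the left.

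Promoters of the genes at the chains did not follow one direction. Of the 317 genes 235 had a promoter peak in all 4 lists. Both K20R ranks were below both WT ranks in 59 of them (25.1%), where all autosomal genes with such peaks had 22.8%, and above in 53 (22.6%), where all had 24.1%. In 123 the genotypes overlapped. These shares were thus close to those of all genes. The largest differences downwards were at Spata13 in the chromosome 14 stretch, with 88.3 and 91.1 in WT against 53.9 and 48.3 in K20R, and at Plekha6, with 56.9 and 35.5 against 11.7 and 15.3. The largest upwards was at Cacna1g, a calcium channel gene, with 25.6 and 31.6 against 49.3 and 60.3.

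A promoter peak in both WT lists and in neither K20R list was present at 13 genes at the chains, and the reverse at 0. Over all autosomal protein-coding genes 0.804% had the first pattern and 0.544% the reverse. At 10 of the 13 the promoter peak was itself a chained region, so the count restates the rule that chose the chains and is given as a description. The genes were Cd22, Cd93, Chit1, Doc2g, Krt8, Nfam1, Plcb4, Qrich2, Sbsn, Sebox, Tnni1, Txk and Zhx2. Cd93, a glycoprotein of endothelium and blood progenitors, also had a chained region 1024 bp from its TSS at 77.7 and 85.6. A further 54 genes had no promoter peak in any list.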

How the data were processed

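ATAC-seq libraries of WT and CTCF-K20R day 4 EBs, 2 of each, were analysed from their peak lists. The labels name Trim Galore, Bowtie2, MACS2 and deepTools, with mm10 as the genome, and give no roles. The deposited narrowPeak lists hold for each peak a score, a fold enrichment ratio at the summit, a −log10 p and a −log10 q, which the authors obtained with MACS2 for each library separately. Reads per library are not given in the sources used here, so the depth behind a missing peak is unknown. The authors' fold is the pileup plus 1 over the local background plus 1, and with the deposited −log10 p it gave back the pileup at every summit as a whole number within 0.02, for 100% of peaks. The background recovered in the same way had a 1st percentile of 2.76 and 2.71 in the WT lists and of 3.19 and 3.01 in the K20R lists. The lowest pileup was 7 in both WT lists and 8 in both K20R lists. What this higher floor did to the absence of K20R peaks was not tested. The rule by which numbered peaks were left out of the lists is not given in the sources used here.

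Peaks were merged, classed and chained as the report describes, with Python 3.11.15, numpy 2.4.6, pandas 2.3.3, scipy 1.17.1 and pysam 0.24.0, and plots were drawn with matplotlib 3.10.9. The steps were tested on simulated peaks. Genes are protein-coding genes of the GENCODE vM21 basic set, and a promoter peak lies within 1000 bp of a TSS. Common regions within 1 Mb on both sides of a chain served as its surroundings, and surroundings beyond 0.3 were called low or high. The members, the gene lists and the motifs were chosen with earlier results of these data known. Chains described by name were the 15 with the most regions (ties by the shorter span), the 5 with the highest median percentile and those at listed lineage genes. One of these is not reported here. Others were named after their values were seen, as the text says. No test was run, since the genotype contrast itself chose the regions. Alternatives were other gap and size limits, stricter peak cut-offs, other windows and leaving out each library.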

Additional observations from a re-analysis of the deposited data

How the results depend on the processing

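No paired analysis was possible because no result comes from a test, and the replicate numbers are not said to mark a shared batch. The number of chains and of regions in them followed the limits of the rule. A gap of at most 25 kb gave 64 chains with 281 regions and one of at most 100 kb gave 469 with 2515. At least 3 regions gave 541 chains with 1996 regions, and at least 5 gave 91 with 536. Where both WT peaks had to reach a −log10 q of 5, there were 18 chains with 77 regions. Their median percentile, over the pooled values of the WT libraries, was 50.4, beside 31.6 under the rule as used. The medians that follow were pooled in the same way. Lists cut to equal length by strength gave 77 chains with 361 regions at a median of 42.5, and a −log10 q of at least 2 in all lists gave a median of 38.4. Regions with no missing K20R number alone formed 26 chains with 115 regions. Leaving out each library in turn loosens the rule and gave 300 to 843 chains, 1498 to 4648 regions and medians of 19.4 to 32.8.

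The promoter share was 6.56% within 2500 bp. Motif shares follow the window searched. Within 50 bp of the summit they were 6.86% for GATA, 2.05% for T-box, 1.95% for TCF-LEF, 4.51% for AP-1, 1.84% for SOX, 3.79% for forkhead, 13.2% for CAGCTG, 1.23% for CATATG, 6.56% for TEAD, 1.13% for the octamer, 10.04% for MEIS, 7.27% for ETS and 2.87% for the homeodomain letters. Within 200 bp they were 24.3%, 5.23%, 6.45%, 16.3%, 6.66%, 10.9%, 34.8%, 4.51% and 22.2% in the same order up to TEAD, and 35.96% for MEIS, 25% for ETS and 10.2% for the homeodomain letters.

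The surroundings of the chains depended on how they were summed. Their median over chains was 0.06 as reported and 0.027 within 250 kb, where 21 chains were below -0.3 and 8 above 0.3. The difference of the library medians, chosen after seeing the data, reversed it to -0.022 and put 23 chains below -0.3, and the cause was not tested. Leaving out each library gave 0.0407 to 0.0654, with 3 to 4 chains above 0.3. With all libraries, 59 of the 235 ranked genes at the chains had lower promoter ranks in K20R and 53 had higher ones. Without a library these counts were 79 to 95 and 80 to 93. Leaving out a library makes separation of the genotypes easier to reach for any gene. The share over all genes was not computed for these settings, so the rise is not read as a trait of the genes at the chains.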
